A study of Mus musculus with 2 samples.

Results

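Alpha beta T cells, the lymphocytes that read antigen through a receptor of paired alpha and beta chains, were followed in single-cell transcriptomes of an injured tendon site. Cells were selected on their own counts: a barcode counted as an alpha beta T cell with at least 2 UMIs (counted RNA molecules) of Cd3e, Cd3d and Cd3g together, at least 1 UMI of Trac, none of Trdc, and under 50 UMIs per 10000 of the myeloid genes C1qa, C1qb, S100a8 and S100a9. Of 16430 barcodes kept in all, 163 met this rule: 109 of 7190 in the irradiated library and 54 of 9240 in the control library. The receptor chains signal through the CD3 proteins. CD4 and CD8 are coreceptors for class II and class I antigen-presenting molecules, and Foxp3 is the transcription factor that defines regulatory T cells. In wounded tissue, regulatory T cells restrain inflammation and make repair factors such as amphiregulin, while CD8 T cells carry granzymes and make interferon gamma. Interferons bind receptors on nearly all cells and switch on a shared set of antiviral and antigen-presentation genes.

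Both libraries came from male C57BL/6 mice aged 8 to 10 weeks with a back burn (30% of body surface) and a cut left Achilles tendon, an injury that leads to cartilage and bone in soft tissue. The irradiated mice received 7 Gy to the site as 1 dose, and the control mice had the same injury without radiation. The site was taken 7 days after injury, digested with collagenase and dispase, and loaded unsorted on the 10x 3′ platform. The labels describe arms of 10 mice with radiation on postoperative day 1 or 3, the wording leaves the day of the irradiated library uncertain, and the number of mice pooled in a library is not stated. Each group was 1 library, so treatment and library cannot be told apart, no test was made, and all intervals are 95% intervals that cover counting error only. The irradiated library held 8302 barcodes with 111753092 UMIs in total, of which 86.6% were kept, and the control library held 11369 barcodes with 180080740 UMIs, of which 81.3% were kept. The libraries shared 32 barcodes, none of them an alpha beta T cell.

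Trbc2 was the only given marker that the selection did not use. Trac (ENSMUSG00000076928, chr14:54220521-54224206, + strand, GRCm38) had 481 UMIs in irradiated and 190 UMIs in control cells, which the rule required. Cd3e (ENSMUSG00000032093, chr9:44998740-45009627, − strand), whose count the rule also used, was seen in 94 of 109 irradiated cells (86.2%) and 43 of 54 control cells (79.6%). Trbc2, a beta chain constant region, was seen in 104 of 109 irradiated cells (95.4%) and in 50 of 54 control cells (92.6%). Of the beta constant regions, Trbc1 and Trbc2 were both read in 55 irradiated and 20 control cells, and neither in 1 irradiated and 2 control cells. The B cell genes Ms4a1 and Pax5 were at 0 in both libraries. Close to the limits of the rule, a CD3 sum of exactly 2 admitted 7 irradiated cells and 1 control cell, while a sum of 1 left out 4 and 5 barcodes. A Trac count of 1 admitted 16 irradiated and 16 control cells, and a count of 0 left out 13 and 15.

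The alpha beta T cells were shallower than the other barcodes. Their median depth was 6020 UMIs in irradiated cells, with a range of 1916 to 51054, and 4798 UMIs in control cells, with a range of 1996 to 64289. A few of them carried abundant RNA of other cell types. Above 50 UMIs per 10000 of collagen or keratin genes lay 3 irradiated cells, which held 11.2% of the irradiated T cell UMIs, and 7 control cells, which held 48.5% of the control T cell UMIs. The summed fibroblast list accordingly stood at 502 CPM (UMIs scaled to the same summed total in each library) in all irradiated cells and 27707 CPM in all control cells. Without those cells it stood at 195 CPM in irradiated and 640 CPM in control cells. Whether such barcodes are doublets or T cells with free RNA was not tested, so gene values are given for all 163 cells and again for the 106 irradiated and 47 control cells under the collagen and keratin limit. The summed UMIs were 1022631 and 573785 for all irradiated and all control cells, and 908205 and 295349 under the limit.

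**Figure D1:**
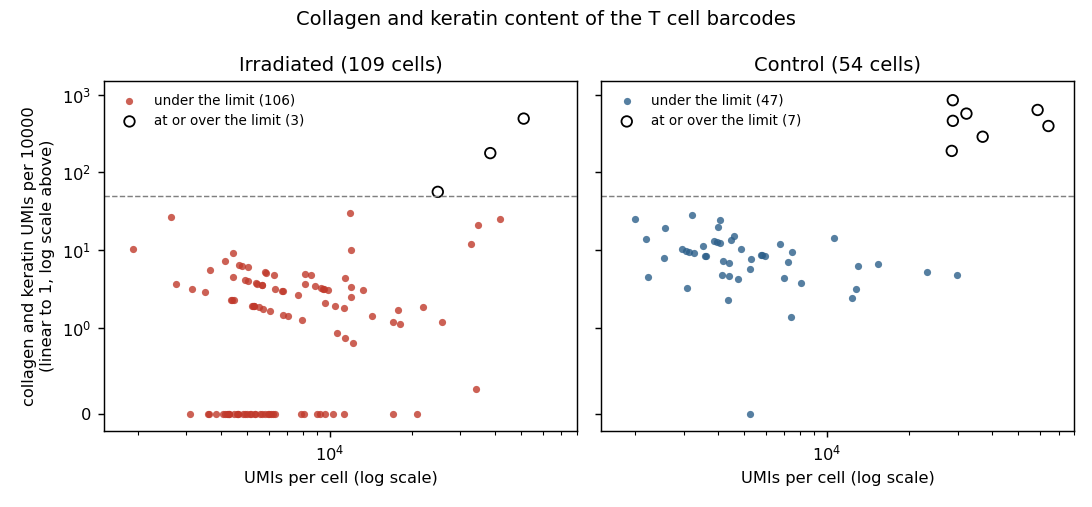
Each point is 1 alpha beta T cell, irradiated in the left and control in the right panel, with UMIs per cell on a horizontal log axis and collagen and keratin UMIs per 10000 on a vertical axis that is linear to 1 and logarithmic above. Open circles at or over the dashed limit of 50 are the 3 irradiated and 7 control cells named above, all deeper than their library's median cell.

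RNA of further cell types was also read. Under the limit, the macrophage list stood at 705 CPM in irradiated and 999 CPM in control cells, and the keratinocyte list at 845 and 809 CPM. The red cell list stood at 388 CPM in irradiated and 10.2 CPM in control cells under the limit, and at 345 CPM in irradiated and 2065 CPM in control cells over all cells. Single cells held most of it: 106 of the 119 irradiated UMIs of the globin gene Hba-a1 came from 1 cell, and 147 of its 148 control UMIs came from 1 control cell. The neutrophil list, held down in part by the rule itself, stood at 383 CPM in irradiated and 115 CPM in control cells. The dendritic cell list stood at 1374 CPM in irradiated and 711 CPM in control cells. The part of these sums in the results below was not tested.

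Alpha beta T cells formed a larger share of the irradiated library. They made up 1.52% of kept irradiated barcodes (1.25 to 1.83%, exact Clopper-Pearson) and 0.584% of kept control barcodes (0.439 to 0.762%), a ratio of 2.59-fold (1.86 to 3.66). Under the collagen and keratin limit the ratio was 2.90-fold (2.04 to 4.18). Among barcodes with a UMI of Ptprc, the pan-leukocyte gene that encodes CD45, the share was 2.46% of 4430 irradiated and 1.51% of 3574 control barcodes, a smaller ratio of 1.63-fold (1.16 to 2.30). With every barcode thinned to 2000 UMIs the ratio was 2.77-fold (1.71 to 4.59). NK cells, taken as barcodes with at least 2 UMIs of Ncr1 and Klrb1c together and no CD3 UMI, made up 1.29% of irradiated and 0.292% of control barcodes (4.43-fold, 2.86 to 7.07). Gamma delta T cells, taken as CD3 barcodes with Trdc, made up 0.236% of irradiated and 0.281% of control barcodes (0.840-fold, 0.428 to 1.61). Shares depend on every other cell type in the digest, so a larger share need not be a larger number of cells.

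The shares of cells with a coreceptor or Foxp3 UMI did not differ past their counting error, while the summed levels of the Cd8 genes and Foxp3 were lower in irradiated cells under the limit. Cd4 was seen in 51 irradiated cells (46.8%, 37.2 to 56.6%) and 20 control cells (37.0%, 24.3 to 51.3%), a ratio of 1.26-fold (0.740 to 2.24). Cd8a or Cd8b1 was seen in 17 irradiated cells (15.6%, 9.36 to 23.8%) and 14 control cells (25.9%, 15 to 39.7%), a ratio of 0.602-fold (0.279 to 1.32). Foxp3 (ENSMUSG00000039521, chrX:7573644-7595245, + strand) was seen in 37 irradiated cells (33.9%, 25.1 to 43.6%) and 20 control cells (37.0%, 24.3 to 51.3%), a ratio of 0.917-fold (0.518 to 1.67). Each of these intervals includes equality and also differences of 1.5-fold or more. Thinned to 2000 UMIs, Cd4 was seen in 21.3% of irradiated and 17% of control cells, Cd8a or Cd8b1 in 8.33% and 13.2%, and Foxp3 in 16.7% and 20.8%. As summed levels, Cd8a had 21 irradiated and 21 control UMIs, with log2 ratios of irradiated over control of -0.83 (-1.78 to 0.11) over all cells and of -1.48 (-2.44 to -0.50) under the limit. Cd8b1 had 40 irradiated and 25 control UMIs, with log2 ratios of -0.16 (-0.91 to 0.63) and -0.88 (-1.65 to -0.09). Both were past the rule of size, as set out for the interferon genes, under the limit alone.

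Shares in cells that should lack these genes were far lower. Barcodes gated on keratin genes, which should lack T cell genes and had median depths of 27973 UMIs in the irradiated and 22954 UMIs in the control library, showed Foxp3 in 0.0897% and 0.0464% of barcodes. Cd4 was seen there in 0.448% of irradiated and 1.53% of control barcodes. Neither coreceptor was read in 42 irradiated cells (38.5%) and 21 control cells (38.9%), and both were read in 1 cell of each library. Of the Foxp3 cells, 25 irradiated and 12 control cells also had Cd4, while 11 irradiated and 8 control cells had no coreceptor UMI.

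**Figure D2:**
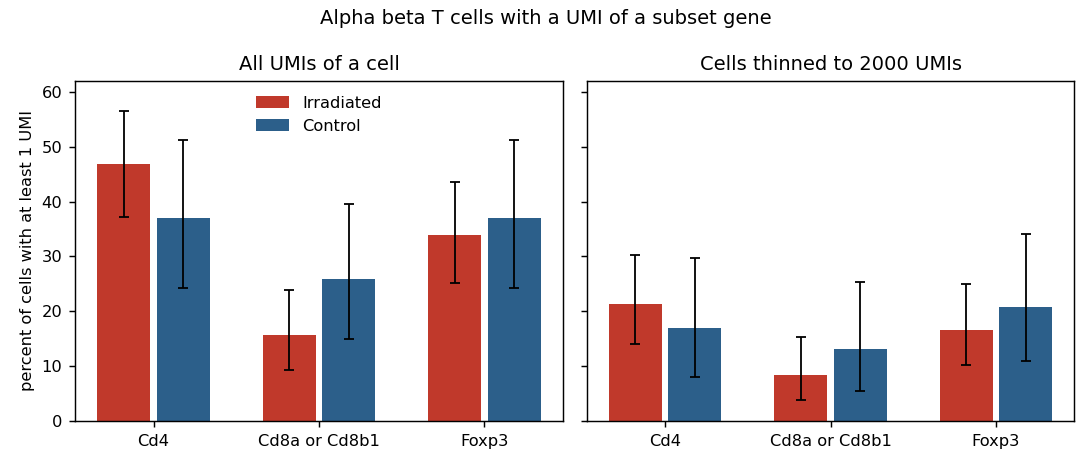
Bars give the percentage of alpha beta T cells with at least 1 UMI of each gene, irradiated left of control, with exact 95% intervals, from all UMIs of a cell in the left panel and after thinning to 2000 UMIs in the right panel. From all UMIs Foxp3 stands at 33.9% in irradiated and 37.0% in control cells, and the intervals overlap for every gene in both panels.

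The Foxp3 cells expressed genes of tissue regulatory T cells in both libraries. Under the limit there were 36 irradiated and 19 control Foxp3 cells. Ikzf2, which encodes the regulatory T cell factor Helios, stood at 5154 CPM in irradiated and 4908 CPM in control Foxp3 cells. Ctla4, an inhibitory receptor, stood at 1281 CPM in irradiated and 1175 CPM in control Foxp3 cells, and Il2ra, the high-affinity interleukin 2 receptor chain, at 746 and 701 CPM. Areg, the repair factor amphiregulin, stood at 338 CPM in irradiated and 410 CPM in control Foxp3 cells. Such genes were not confined to Foxp3 cells. The summed regulatory T cell list stood at 11721 CPM in irradiated and 11225 CPM in control Foxp3 cells. In Cd4 cells without Foxp3 it stood at 2813 CPM in 25 irradiated and 7368 CPM in 7 control cells. The 16 irradiated and 12 control cells with a Cd8 gene and no Cd4 were higher in the summed cytotoxic list. It stood at 4830 CPM in irradiated and 7161 CPM in control Cd8 cells, against 1170 and 283 CPM in Foxp3 cells. In the Cd8 cells the chemokine Ccl5 stood at 1806 CPM in irradiated and 3990 CPM in control cells, the granule gene Nkg7 at 863 and 964 CPM, and Areg at 0 in both. Not every cytotoxic gene was highest there. The granzyme B gene Gzmb stood at 257 CPM in irradiated and 462 CPM in control Cd8 cells, against 994 and 191 CPM in Foxp3 cells.

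Of the lists measured, interferon-stimulated genes had the most members higher in irradiated cells, and their promoters are shown first. The interferon-stimulated response element, bound by IRF factors, holds a pair of GAAA blocks. The letters GAAANNGAAA, or their complement TTTCNNTTTC, were searched on both strands in the 250 bases before each RefSeq gene start (GRCm38.p6). They were found in 20 of the 38 interferon list promoters matched (52.6%), against 821 of 27025 promoters in all (3.04%). Of the list members higher in irradiated cells both over all cells and under the limit, 16 of 28 held a match. Of the other members 4 of 10 did. This split applied no minimum of UMIs, so it includes some members that are not among the genes measured below. The T cell receptor and CD3 list held a match in 0 of 4 promoters. The following 5 list members had a match in the last 100 bases before the start, with at most 20 of those bases inside the GENCODE gene, and were ranked by the lower bound of their ratio under the limit, each read 5′ to 3′ on the gene's strand, with the matched letters in capitals. They are chr19:34640789-34640888 (+) for Ifit1, chr4:156200819-156200918 (−) for Isg15, chr11:58199456-58199555 (+) for Igtp, chr11:83020811-83020910 (−) for Slfn8 and chr3:142530236-142530335 (+) for Gbp7.
Ifit1: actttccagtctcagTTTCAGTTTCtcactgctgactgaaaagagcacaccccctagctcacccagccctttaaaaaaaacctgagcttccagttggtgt
Isg15: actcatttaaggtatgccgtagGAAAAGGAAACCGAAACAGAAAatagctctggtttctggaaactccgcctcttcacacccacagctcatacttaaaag
Igtp: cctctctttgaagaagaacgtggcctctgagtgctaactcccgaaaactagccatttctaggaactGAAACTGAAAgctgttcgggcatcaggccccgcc
Slfn8: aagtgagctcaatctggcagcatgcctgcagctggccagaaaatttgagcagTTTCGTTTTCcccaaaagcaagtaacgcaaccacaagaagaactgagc
Gbp7: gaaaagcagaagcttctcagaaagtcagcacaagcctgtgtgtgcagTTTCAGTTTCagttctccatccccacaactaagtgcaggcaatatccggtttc
The match begins 85 bases before the start in Ifit1, 34 in Igtp, 48 in Slfn8 and 53 in Gbp7. In Isg15 it is a run of 3 overlapping matches that begin 78, 72 and 66 bases before the start. A match is a description of letters and does not show binding in these cells.

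Of 42 interferon-stimulated genes measured in alpha beta T cells, 37 were higher in irradiated cells and none was lower, with a median log2 ratio of irradiated over control of 1.83. A gene was called higher or lower where it differed at least 1.5-fold and its interval left out equality, among genes with at least 20 UMIs over both libraries. By the same rule 12% of all 8258 genes measured were higher and 11.9% were lower, with a median log2 ratio of 0.07. Under the collagen and keratin limit 33 of 42 were higher and none was lower, with a median of 1.37, where 6.44% of all 7023 genes were higher, 5.24% were lower and the median was 0.03. The counts of other lists over alpha beta T cells below stand beside these same shares of all genes. The summed list stood at 6902 CPM in irradiated and 2593 CPM in control cells over all cells, and at 7508 CPM in irradiated and 3457 CPM in control cells under the limit.

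Ifi27l2a and Isg15 were among the most abundant members that differed. Isg15 (ENSMUSG00000035692, chr4:156199424-156200818, − strand), a ubiquitin-like modifier, had 329 UMIs in 61 irradiated cells and 27 UMIs in 7 control cells, a log2 ratio of 2.77 (2.21 to 3.40) and of 2.06 (1.47 to 2.71) under the limit. Ifi27l2a (ENSMUSG00000079017, chr12:103442167-103443680, − strand) stood at 1192 CPM in irradiated and 192 CPM in control cells. It was read in 97 irradiated and 32 control cells, with a log2 ratio of 2.64 (2.35 to 2.93) and of 1.86 (1.57 to 2.16) under the limit. Both were read in most irradiated cells. Ifit1, which binds foreign RNA, had 59 UMIs in 27 irradiated cells and 1 UMI in 1 control cell, a log2 ratio of 5.05 whose interval of 2.51 to 10.38 is wide because of that single control count. Rsad2, which makes the antiviral protein viperin, had 40 irradiated and 1 control UMI. Rtp4 had 76 UMIs in 45 irradiated cells and 2 UMIs in 2 control cells, a log2 ratio of 4.41 (2.51 to 7.49). Near-absent in control cells, these 3 genes have ratios that are poorly bounded from above.

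GTPases that interferon gamma is known to induce were higher too. Igtp, an immunity-related GTPase, had 113 UMIs in 50 irradiated cells and 8 UMIs in 6 control cells, with a log2 ratio of 2.99 and of 2.38 under the limit. Iigp1, of the same family, had 100 UMIs in 18 irradiated cells and 1 UMI in 1 control cell, a log2 ratio of 5.81 (3.30 to 11.13). Gbp2, a guanylate-binding protein, had 57 irradiated and 10 control UMIs, with log2 ratios of 1.68 and 1.86 under the limit. Gbp7 had 107 UMIs in 56 irradiated cells and 17 UMIs in 9 control cells, with log2 ratios of 1.82 and 1.29 under the limit. Irf7, the factor that amplifies type I interferon production, had 77 UMIs in 45 irradiated cells and 6 UMIs in 4 control cells, with log2 ratios of 2.85 and 2.04 under the limit. Regulators varied. Stat2 had 59 irradiated and 14 control UMIs, with log2 ratios of 1.24 and 1.55, called higher in both sums, and Irf9 had 51 irradiated and 14 control UMIs, with 1.03, called, and 0.58, not called. Irf1, with 165 irradiated and 64 control UMIs, had log2 ratios of 0.53 and 0.08, and Socs1, a feedback inhibitor, 0.17 in both sums, and neither was called. Ly6a changed its call the other way, with a log2 ratio of 0.37 over all cells and of 1.28, called higher, under the limit.

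**Figure D3:**
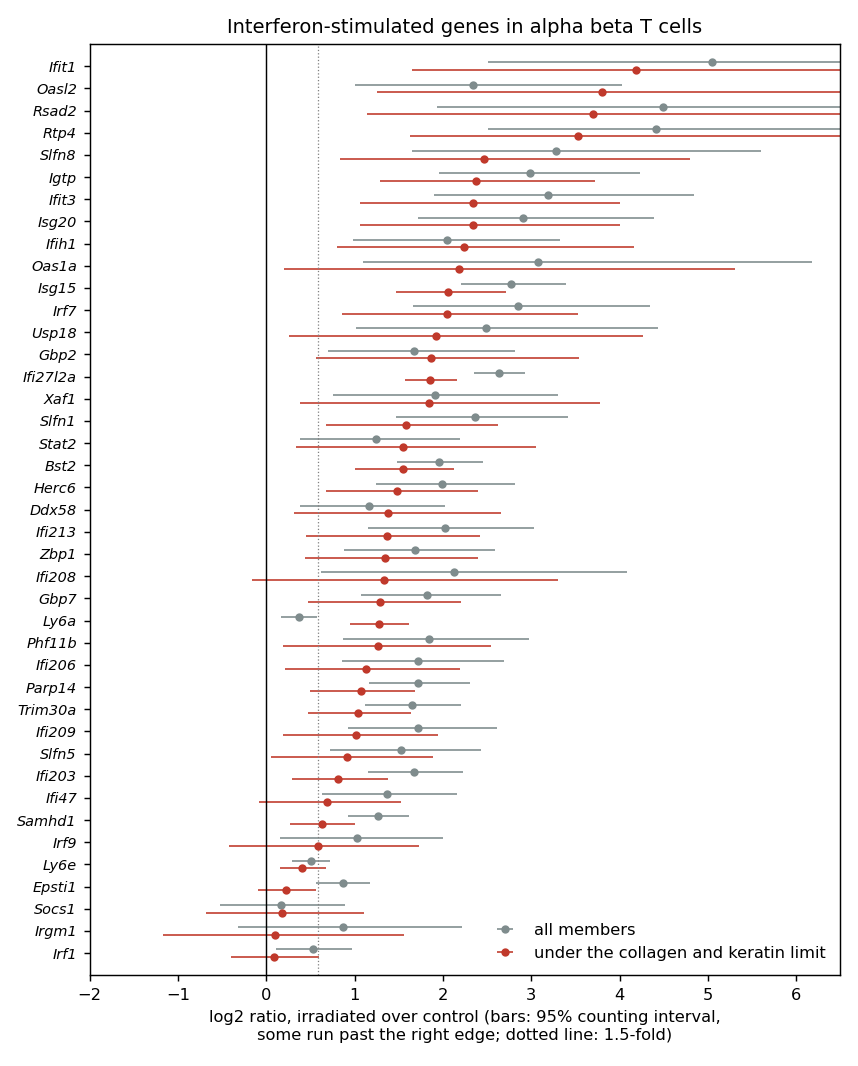
Log2 ratios of irradiated over control are drawn for 41 of the 42 interferon-stimulated genes measured, over all cells and under the collagen and keratin limit, with exact 95% intervals. Points to the right of 0 are higher in irradiated cells, and the intervals of low-count genes such as Ifit1 and Rtp4 reach far to the right.

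The difference was spread over most cells rather than held by a few. Interferon list UMIs per 10000 had a median of 68.3 in irradiated cells, with a range of 10.4 to 511, and a median of 27.2 in control cells, with a range of 9.55 to 162. The quartiles were 41.7 and 103 in irradiated and 20.02 and 38.9 in control cells. Above the control median lay 95 of 109 irradiated cells (87.2%), while the ranges overlapped. After thinning to 2000 UMIs the medians were 13 interferon UMIs in irradiated and 7 in control cells.

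The difference was also followed within subsets. In Cd4 cells without a Cd8 UMI the median per 10000 was 68.9 in irradiated cells, with a range of 21.5 to 511, and 27.0 in control cells, with a range of 9.55 to 38.6, and 48 of 50 irradiated cells lay above the control median. The medians were 86.8 in irradiated and 32.9 in control Foxp3 cells, 57.8 in irradiated and 25.2 in control cells with neither coreceptor, and 74.8 in irradiated and 40.2 in control Cd8 cells. Irradiated Cd8 cells ranged from 19.8 to 247 and control Cd8 cells from 10.5 to 162. Under the limit, 28 of 36 interferon genes measured in Cd4 cells were higher in the irradiated library, with a median log2 ratio of 1.99, where 10.7% of all genes in those cells were higher and 8.2% were lower. In Foxp3 cells 17 of 28 were higher with a median of 1.5 (7.59% of all genes higher, 8.18% lower), and in cells with neither coreceptor 10 of 27 with a median of 1.03 (8.74% of all genes higher, 5% lower). In Cd8 cells 3 of 23 were higher with a median of 0.40 (6.38% of all genes higher, 7% lower), and the summed list stood at 7743 CPM in irradiated and 5721 CPM in control Cd8 cells. The control Cd8 level was above the 2427 CPM of control Cd4 cells, which stood against 9069 CPM in irradiated Cd4 cells. In Cd4 cells without Foxp3, 25 irradiated and 7 control cells, 6 of 24 were higher with a median of 1.12 (5.54% of all genes higher, 6.21% lower). Under the limit no interferon gene was lower in any of these subsets, and over all cells 1 was lower, in cells with neither coreceptor. Isg15 stood with 146 irradiated and 3 control UMIs in Cd4 cells, and 73 irradiated and 21 control UMIs in Cd8 cells. The difference between subsets was not tested, and the Cd8 sums rest on 16 irradiated and 12 control cells.

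**Figure D4:**
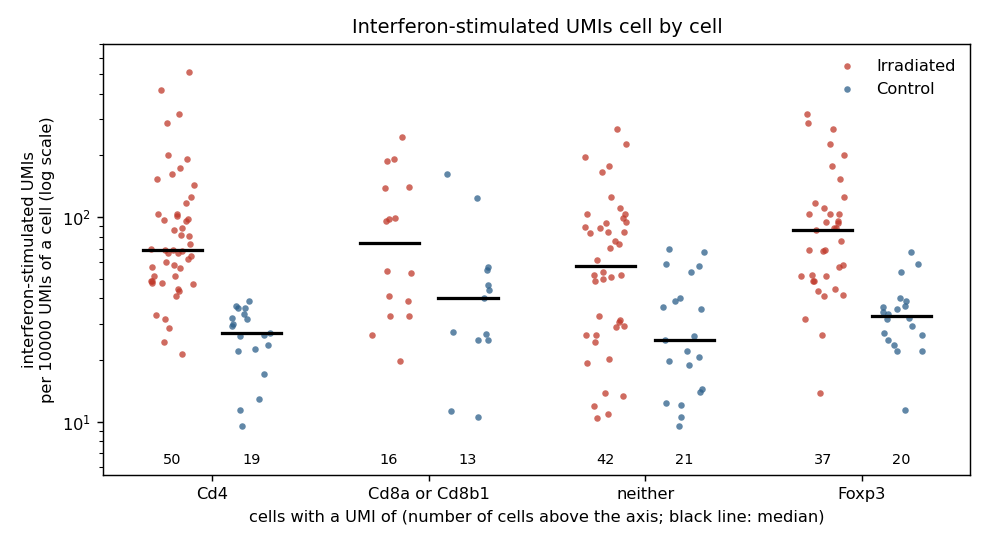
Each point is 1 alpha beta T cell, with interferon-stimulated UMIs per 10000 on a log axis, irradiated left of control within each subset and lines at the medians. Medians are 68.9 in irradiated and 27.0 in control Cd4 cells, and 74.8 in irradiated and 40.2 in control Cd8 cells.

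Class I antigen presentation, which displays internal peptides to CD8 T cells, was higher over all cells, and only part of it stayed past the rule under the limit. Over all cells 14 of 16 genes were higher and none was lower, with a median log2 ratio of 1.08. Under the limit 5 of 16 were higher, none was lower, and the median was 0.49. B2m, the light chain of class I molecules, had 2170 irradiated and 557 control UMIs, with log2 ratios of 1.13 (0.99 to 1.27) and 0.65 (0.49 to 0.80) under the limit. H2-T23, the nonclassical molecule Qa-1, had 263 irradiated and 34 control UMIs, with log2 ratios of 2.12 and 1.45 under the limit. The peptide transporter gene Tap1 had log2 ratios of 1.46 and 0.84, and the immunoproteasome gene Psmb9 of 1.22 and 0.69. The heavy chain H2-K1, with 2855 irradiated and 774 control UMIs, had a log2 ratio of 1.05 over all cells and of 0.41 (0.28 to 0.54) under the limit, below the 1.5-fold rule. Per cell, class I UMIs per 10000 had a median of 108 in irradiated cells, with a range of 21.9 to 214, and of 64.8 in control cells, with a range of 6.07 to 153. The H2 genes are near-identical copies whose reads the counting could split.

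Genes of the receptor itself were close to equal under the limit, with 1 exception. Trac, Cd3e, Cd3d and Cd3g were used to select the cells in both libraries, so their near equality is in part set by the rule. Of 7 T cell receptor and CD3 genes, 4 were higher over all cells with a median of 0.61, and 1 was higher under the limit with a median of 0.00. Under the limit Trac had a log2 ratio of -0.10, Trbc2 of 0.00 and Cd3e of -0.07. That exception was Trbc1, with 347 irradiated and 84 control UMIs and log2 ratios of 1.21 (0.87 to 1.57) and 0.94 (0.52 to 1.38) under the limit. Trbc1 was read in 59 irradiated cells (54.1%) and 22 control cells (40.7%), and it is a near-identical copy of Trbc2 whose reads may be split between them. Of 16 T cell signalling genes, 13 were higher over all cells, and 0 were higher or lower under the limit, where the median was 0.21.

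Cytotoxic and innate-like genes were in part higher in irradiated cells, while in Cd8 cells under the limit the summed cytotoxic list was lower. Of 15 cytotoxic genes 9 were higher over all cells, and under the limit 6 were higher and 1 was lower, with a median of 0.41. In Cd8 cells under the limit 2 of 11 were higher and 3 were lower, with a median of -0.16. The summed list stood there at 4830 CPM in irradiated and 7161 CPM in control cells. In cells with neither coreceptor it stood at 3876 CPM in irradiated and 1059 CPM in control cells. Gzmb, the death-inducing protease granzyme B, had 505 UMIs in 52 irradiated cells and 69 UMIs in 14 control cells, with log2 ratios of 2.04 (1.67 to 2.42) and 1.21 (0.84 to 1.60) under the limit. Much of this Gzmb lay outside Cd8 cells. In Foxp3 cells under the limit Gzmb stood at 994 CPM in irradiated and 191 CPM in control cells, a log2 ratio of 2.38 (1.81 to 3.00), whereas in Cd8 cells the log2 ratio was -0.85 (-1.53 to -0.16). That Cd8 value rested on 1 control cell with 30 of the 35 control UMIs. Without the highest cell of each library, Gzmb stood at 200 CPM in irradiated and 79.7 CPM in control Cd8 cells, a log2 ratio of 1.32 in the other direction. Klrk1, the activating receptor NKG2D, had 183 UMIs in 33 irradiated cells and 27 UMIs in 11 control cells, with log2 ratios of 1.93 and 1.55 under the limit. The chemokine Xcl1 had 194 irradiated and 40 control UMIs, with log2 ratios of 1.44 and 1.22. Ccl5, also a chemokine, had 725 irradiated and 366 control UMIs, a log2 ratio of 0.15 over all cells and of -0.72 (-0.91 to -0.53), called lower, under the limit. Single cells carried other genes of the list: of the 240 irradiated UMIs of Gzma 202 came from 1 cell, and of the 59 of Ccl3 47 came from 1 cell.

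Of 8 measured genes shared by NK and innate-like T cells, 6 were higher over all cells and 7 under the limit, with medians of 2.05 and 1.66 and none lower. Fcer1g, a signalling adaptor of innate cells, had 290 irradiated and 54 control UMIs, with log2 ratios of 1.59 and 1.27. Klra7, an inhibitory Ly49 receptor, had 107 UMIs in 13 irradiated cells and 2 UMIs in 1 control cell, and the Ly49 genes are near-identical copies. The NK receptor Klrb1c was read in 10 irradiated cells and 1 control cell. Whether these are alpha beta T cells with NK receptors or NK cells with T cell RNA was not tested. Ifng, the cytokine of type 1 responses, had 87 UMIs in 19 irradiated cells and 12 UMIs in 5 control cells, with log2 ratios of 2.02 (1.15 to 3.03) and 1.48 (0.54 to 2.59). In Cd8 cells under the limit it had 41 irradiated and 3 control UMIs, and 29 of the 41 came from 1 cell, which leaves 12 irradiated UMIs in the others. Ly6c2, carried by effector and memory CD8 T cells, had 467 irradiated and 82 control UMIs, with log2 ratios of 1.68 and 1.42.

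A few genes of tissue regulatory and type 17 T cells were lower in irradiated cells. Il1rl1, which encodes the interleukin 33 receptor ST2 of tissue regulatory T cells, had 111 UMIs in 22 irradiated cells and 107 UMIs in 22 control cells, a log2 ratio of -0.78 (-1.18 to -0.38) and of -1.53 (-1.93 to -1.13) under the limit. It was lower within Foxp3 cells too, at 282 CPM in irradiated and 588 CPM in control cells under the limit (log2 ratio -1.06). The chemokine receptor Ccr6 had 17 irradiated and 20 control UMIs, with log2 ratios of -1.07 and -2.06, and the interleukin 23 receptor gene Il23r 38 irradiated and 36 control UMIs, with -0.76 and -1.25. Both mark type 17 cells, and of 6 type 17 genes 1 was higher and 2 were lower in both sums. The higher gene was the cytokine Il17a, with log2 ratios of 3.97 and 3.19. It had 28 UMIs in 3 irradiated cells, 17 of them in 1 cell, and 1 UMI in 1 control cell. The type 17 list as a whole was not lower, with medians of 0.10 over all cells and 0.21 under the limit. Its sum under the limit was 1409 CPM in irradiated and 1300 CPM in control cells. Under the limit Tox, a factor of chronically stimulated T cells, was lower as well, with 599 irradiated and 431 control UMIs over all cells and log2 ratios of -0.36, not called, and -1.15 (-1.34 to -0.96). Klrg1, on mature effector and regulatory cells, had log2 ratios of -0.41, not called, and -1.30, and Foxp3 itself of -0.09 and -0.80 (-1.33 to -0.25), the first again not called. The whole regulatory T cell list thus turned its direction, with 4 of 15 higher, 1 lower and a median of 0.41 over all cells, and 0 higher, 3 lower and a median of -0.17 under the limit. Within Foxp3 cells under the limit the list was close to level, with 4 of 15 higher, 2 lower and a median of 0.07. Its sum there was 11721 CPM in irradiated and 11225 CPM in control cells.

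Migration and costimulation genes showed a few differences in both sums. Cxcr4, the receptor for Cxcl12, had 216 UMIs in 72 irradiated cells and 34 UMIs in 20 control cells, with log2 ratios of 1.83 (1.31 to 2.40) and 1.27 (0.69 to 1.89) under the limit. Ccr4, which guides T cells to skin, had 67 irradiated and 15 control UMIs, with log2 ratios of 1.33 (0.50 to 2.24) and 1.86 (0.66 to 3.36). In Foxp3 cells under the limit Ccr4 stood at 159 CPM in irradiated and 7.08 CPM in control cells. That control level is a single UMI, so the size of this contrast is poorly bounded. Of 19 chemokine and homing receptors 11 were higher and 1 was lower over all cells, and 2 were higher and 1 was lower under the limit. Of all genes measured 12% were higher and 11.9% lower over all cells, and 6.44% and 5.24% under the limit. The chemokine and homing receptor counts under the limit lay near those shares. Entpd1, the ATP-degrading enzyme CD39, had 44 irradiated and 6 control UMIs, with log2 ratios of 2.04 and 1.84. Tnfsf11, the osteoclast-inducing ligand RANKL, had 134 irradiated and 34 control UMIs, with log2 ratios of 1.14 and 0.75. Il7r, the survival receptor of naive and memory T cells, was not called over all cells at -0.00 and was lower under the limit at -0.63.

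Genes of the p53 response, which ionising radiation induces through DNA damage, differed in part. Of 22 p53 targets 5 were higher and 1 was lower over all cells with a median of 0.20, and of 20 under the limit 4 were higher and 1 was lower with a median of 0.11. The summed list was close to equal, at 2214 CPM in irradiated and 2205 CPM in control cells, and at 2005 and 1916 CPM under the limit. Within subsets under the limit, 2 of 12 were higher and 2 lower in Cd4 cells, and 3 of 12 higher and 1 lower in Foxp3 cells. In Cd8 cells 0 of 6 were higher and 1 was lower, and with neither coreceptor 0 of 11 were called. Cdkn1a, the cell cycle inhibitor p21, had 227 UMIs in 68 irradiated cells and 75 UMIs in 22 control cells, with log2 ratios of 0.76 (0.38 to 1.16) and 0.93 (0.42 to 1.48). Mdm2, the p53 inhibitor, had 95 irradiated and 30 control UMIs, with 0.83 and 1.09, and Ccng1 56 irradiated and 12 control UMIs, with 1.39 and 1.44. Trp53inp1 had 127 irradiated and 32 control UMIs, with 1.15 and 0.76. The pro-death targets Bax and Fas were not called in the sum over all cells, with log2 ratios of -0.38 and 0.24. Under the limit with every cell weighted alike, the log2 ratio was -0.47 for each. Of 24 cell death genes 14 were higher and 1 was lower over all cells, and under the limit 4 were higher and none was lower. Bcl2l11, the pro-death protein BIM, had 305 irradiated and 81 control UMIs, with log2 ratios of 1.08 and 0.85, while Cflar, which blocks death receptors, had 227 irradiated and 56 control UMIs, with 1.19 and 0.64.

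DNA synthesis genes were in part higher and mitosis genes in part lower. The shares over all genes were 12% higher and 11.9% lower over all cells, and 6.44% and 5.24% under the limit. Of 17 DNA synthesis genes 8 were higher over all cells and 3 under the limit, with medians of 0.72 and 0.74 and none lower. Pcna, the replication clamp, had 185 irradiated and 63 control UMIs, with log2 ratios of 0.72 and 0.85. Of 17 mitosis genes none was higher and 5 were lower over all cells, with a median of -0.53, and under the limit 3 of 12 were lower with a median of -0.43. Ube2c, a ubiquitin enzyme of mitotic exit, had 58 irradiated and 98 control UMIs, with log2 ratios of -1.59 and -1.65. The mitosis counts rested on few cells: under the limit, 2 control cells held 78.3% of the 337 control mitosis UMIs, and 2 irradiated cells 36.3% of the 661 irradiated ones. Without those cells the list stood at 484 CPM in irradiated and 301 CPM in control cells, against 728 CPM in irradiated and 1141 CPM in control cells with them, so the direction of the sum turned. Over all 163 cells, the share with at least 2 mitosis UMIs was 33.9% in irradiated and 33.3% in control cells. Under the limit 35 of 106 irradiated and 13 of 47 control cells had at least 2.

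Other T cell lists had few members past the rule under the limit. Among all genes measured, 12% were higher and 11.9% lower over all cells, and 6.44% and 5.24% under the limit. Of 16 activation and inhibitory receptors, 6 were higher over all cells, and 1 was higher and 1 lower under the limit. Of 21 early response and NR4A genes, which T cell receptor signals switch on, 1 was higher and 2 were lower over all cells, and 3 of 20 were higher and none was lower under the limit. Of 16 glycolysis genes 1 was higher and 3 were lower over all cells, and 0 of 15 were called under the limit. Of 17 cytokine receptors 5 were higher over all cells, and 1 was higher and 1 lower under the limit. Of 10 type 1 effector genes 6 were higher over all cells and 2 under the limit, and none was lower. Of 12 heat shock genes 0 were higher and 3 were lower over all cells, and 0 were called in either direction under the limit. Of 11 genes of naive and circulating T cells, 2 were higher and 1 was lower over all cells, and 1 of 10 was lower under the limit.

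**Figure D5:**
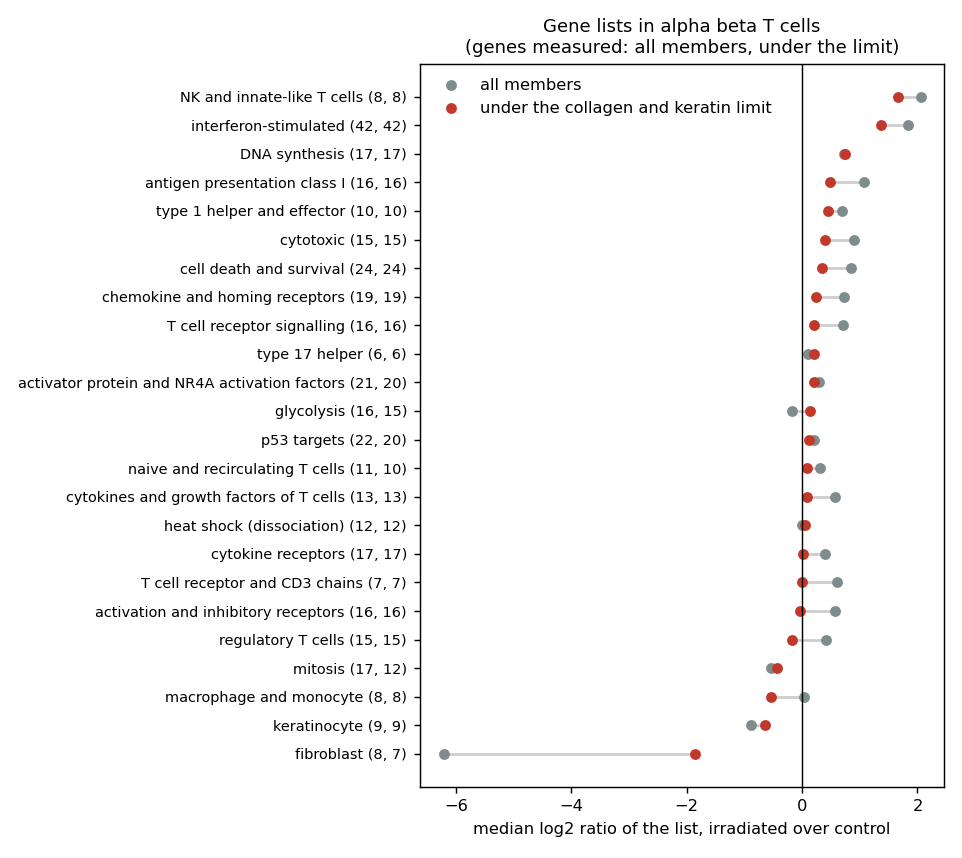
Each row is 1 gene list, with its median log2 ratio of irradiated over control over all alpha beta T cells and under the collagen and keratin limit. The NK and innate-like list lies at 2.05 and 1.66, the interferon list at 1.83 and 1.37, and the fibroblast list at -6.21 and -1.86.

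Among genes at least as high in alpha beta T cells as in all other barcodes, the 12 with the widest higher ratios were led by Gzma and Iigp1 and held Ifi27l2a, Igtp, Isg20, Slfn8, Klra7 and Gzmb. The unnamed transcript A330040F15Rik had 54 UMIs in 31 irradiated cells and 3 UMIs in 1 control cell. Nppc, a natriuretic peptide gene, and Krt2, an epidermal keratin, rested on single cells: 51 of 52 irradiated UMIs of Nppc and 960 of 966 of Krt2 came from 1 cell each. The 12 widest lower ratios were mostly in genes of fibroblasts and tendon, led by Col1a2 with 35 irradiated and 3307 control UMIs (-7.40) and Col1a1 with 68 irradiated and 4720 control UMIs (-6.95). Under the limit none of those 12 was again among the widest lower ratios, which were led by Rapgef5 (-2.42) and Tmtc2 (-1.81) and held Il1rl1, Tox, Klrg1 and Cd200r1. Pak1, a kinase, entered the higher genes with 196 irradiated and 26 control UMIs and log2 ratios of 2.08 and 2.26, of which 121 irradiated UMIs came from 1 cell.

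The interferon difference was not confined to alpha beta T cells. In all other kept barcodes 46 of 47 interferon genes were higher in the irradiated library and none was lower, with a median log2 ratio of 2.2, where 14% of all genes were higher and 13.3% lower. In NK cells 16 of 42 were higher with a median of 0.96 (11% of all genes higher, 8.15% lower), and in gamma delta T cells 9 of 16 were higher and 1 was lower with a median of 1.16 (11.7% of all genes higher, 10.5% lower). The class I list was higher in 15 of 16 genes in all other barcodes and in 9 of 16 in NK cells. Of the p53 list, 14 of 29 genes were higher in all other barcodes, where Cdkn1a had a log2 ratio of 1.79, and in NK cells 0 were higher and 2 of 17 were lower. In gamma delta T cells 5 of 13 p53 genes were higher and none was lower, with a median of 0.61. Median depth was 10305 UMIs in irradiated and 14198 UMIs in control barcodes of the rest. Their summed UMIs were 105724210 in irradiated and 171076684 in control barcodes, against 1022631 and 573785 in alpha beta T cells. The rule works on sums, so the counts of genes past it are not matched between cell types. The difference between alpha beta T cells and these cell types was not tested.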

How the data were processed

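The values were raw UMI counts per gene and barcode, deposited by the authors, made with Cell Ranger (5.0.1 per the file headers) against mm10 per the submitters' processing notes. Further filters by the authors are not given in the sources used here. Members and gene lists were chosen with earlier results of these data known. Minimums of 500 genes and 1000 UMIs and a mitochondrial maximum of 10% set which barcodes were kept. Doublets were not removed: at a Scrublet score of 0.25 or more lay 4 irradiated and 1 control member, and the doublet limit was an alternative. UMIs were summed per library and given as CPM. Ratios have exact conditional Poisson intervals, and shares exact Clopper-Pearson intervals, at 95%. The lists held 460 genes, of which 458 were found. A gene at 0 in 1 library was set to a floor of 3 counts over the group. Named were the genes of the rule and subsets, up to 4 members a list with the widest ratio, then the best known members, and the 12 highest and 12 lowest genes by the interval bound nearest to equality, with at least 50 UMIs. Members singled out beyond this were chosen after their values were seen. Calculations were tested on simulated data and used Python 3.11.15, numpy 2.4.6, scipy 1.17.1, pandas 2.3.3, scanpy 1.11.5 and matplotlib 3.10.9. Promoters came from RefSeq and gene positions from GENCODE M21. The alternatives were the collagen and keratin limit, stricter barcode and Trac minimums, thinning, equal weight of cells, another scaling and other UMI minimums. Some items are not reported here.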

Additional observations from a re-analysis of the deposited data

How the results depend on the processing

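No paired analysis was possible because each group was 1 library. The larger share of alpha beta T cells passed the rule under every alternative run, at 1.63-fold to 3.15-fold. Thinned to 2000 UMIs, Cd4 was seen in 21.3% of irradiated and 17% of control cells, Cd8a or Cd8b1 in 8.33% and 13.2%, and Foxp3 in 16.7% and 20.8%. With at least 2 UMIs, Cd4 was seen in 20.2% and 16.7%, and Foxp3 in 18.3% and 24.1%. Over all cells 991 genes were higher and 984 were lower. The higher count was 452 under the collagen and keratin limit, 335 under a limit on 6 lists of other cell types and 205 after thinning. The lower count was 368, 264 and 105 under the same settings, 1606 with every cell weighted alike, 584 without the highest cell of each gene and 575 with at least 50 UMIs. Dcn reversed to 0.53 under the limit on 6 lists, and Cthrc1 to 0.64 under the collagen and keratin limit with equal weights. Thinning and the minimum of 50 UMIs leave fewer genes to call, and for the other settings the cause was not tested. The interferon list kept 25 to 40 members higher and none lower under every alternative, and class I kept 3 to 15. With 54 control cells, ratios of genes with few control UMIs have wide intervals. Sums without the highest 1 or 2 cells of each library were chosen after seeing the data.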

Other observations

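The receptor variable segments were read too rarely to follow clones: a beta segment was seen in 15 irradiated cells over 9 segments and in 3 control cells over 3 segments, and an alpha segment in 17 irradiated cells over 16 segments and in 7 control cells over 7 segments. Effector cytokines were held by few cells. Il17a had 28 UMIs in 3 irradiated cells, 17 of them in 1 cell, and 1 UMI in 1 control cell. Il10 was read in 11 irradiated and 5 control cells, Tnf in 35 irradiated and 15 control cells, and Areg in 26 irradiated and 14 control cells.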
